A study of Sus scrofa with 12 samples.

Results

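The proteasome is the protein complex that degrades proteins tagged with ubiquitin, and its subunits are named with symbols that begin with PSM. Members were taken by symbol, as every gene whose symbol starts with PSMA, PSMB, PSMC, PSMD, PSME, PSMF or PSMG followed by a digit. This gave 44 of 31694 gene rows. The core particle, or 20S proteasome, is a barrel of alpha rings (PSMA) and beta rings (PSMB), and the cutting sites sit on beta subunits. The regulatory particle, or 19S, holds ATPases (PSMC) and other subunits (PSMD) that bind, unfold and feed in tagged proteins. In cells exposed to interferon, PSMB8, PSMB9 and PSMB10 replace the standard cutting subunits to form the immunoproteasome, and PSME1 and PSME2 form the activator PA28, and these 5 genes are described apart from the rest.

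Liver mRNA was sequenced from male, uncastrated Jinhua (JH) and Landrace (LD) pigs aged 70 days, with 1 library from each of 3 pigs per breed. The labels call LD the control group. Values are RPKM, reads of a gene scaled by its length and by the reads of the library, and levels of different genes are compared on this scale. Read totals behind the RPKM, recovered from the steps between the values, ran from 5.74 M reads in JH1 to 7.91 M reads in LD3. They are the totals used for scaling, and in each library they lie below the clean reads that the study reported.

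Of the 44 members, 37 reached 0.5 RPKM in 3 or more libraries and were tested. All 37 reached this level in all 6 libraries. PSMA8, the alpha subunit of the testis, was above 0 only in LD2, at 0.0936 RPKM. The other 6 members, PSMB1, PSMB3, PSMB9, PSMB10, PSMB11 and PSMD7, were listed at 0 in all 6 libraries. PSMB1 and PSMB3 are parts of the core particle and PSMD7 is a lid subunit of the 19S particle, and 12080 gene rows, B2M among them, were also listed at 0 throughout, so for these genes only the listed 0 can be given. The RefSeq table of assembly Sscrofa11.1 holds 49 symbols of the same form, and 5 of them have no row under that symbol in the files (PSMB2, PSMB5, PSMC4, PSMC5 and PSMD3). By gene number or older name, PSMB5 was found as LOC100155139, PSMD3 as LOC100512253 and PSMC5 as TBP10. They are given here under the RefSeq symbols and stay outside the counts of members. PSMC3IP, a meiotic recombination factor named for binding an ATPase subunit, matched by symbol and is not a proteasome subunit.

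JH2 stood apart from the other libraries in genes of immune cells. Of the 34 tested markers of T and NK cells, B and plasma cells, macrophages, dendritic cells and leukocytes in general, 27 were highest in JH2 (79.4%), against 22.8% of all genes tested. The summed level of the 13 T and NK cell markers was 36.5, 156, 42.2 RPKM in JH1, JH2 and JH3 and 56.8, 55.8 and 62.3 RPKM in LD1, LD2 and LD3. The immunoproteasome and PA28 results and the counts of members are therefore given with and without JH2. JH3 and LD3 differed from the rest in another way. The 18S ribosomal RNA gene RN18S was listed at 62257 RPKM in JH3 and at 20160 RPKM in LD3, against 1570 to 7309 RPKM in the other 4 libraries. The median RPKM of the tested genes was 4.18 in JH3 and 4.19 in LD3, against 4.99 to 5.23 in the others.

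As a group, proteasome genes sat slightly higher in JH than in LD, and no member passed the test after adjustment. The fold changes are JH over LD on the log2(RPKM + 0.1) scale, which understates the change of low genes. With limma, 310 of 12993 genes were DEGs (2.39%) when DEGs need an adjusted p under 0.05 and more than 1 log2 unit between breeds. Leaving out a library gave 164 DEGs without JH1, 150 without JH2, 406 without JH3, 79 without LD1, 114 without LD2 and 149 without LD3. Of the 37 tested members, 0 were DEGs, and 0 had an adjusted p below 0.05 at any fold change. The lowest adjusted p in limma was 0.108, for PSMG3. At an unadjusted p below 0.05, limma gave 6 of 37 members higher in JH (16.2%), against 8.35% of all genes. It gave 0 members lower in JH, against 9.51% of all genes. The voom test on the recovered reads gave 0 members at an adjusted p below 0.05. It gave 8 of 37 members higher in JH at an unadjusted p below 0.05, against 8.40% of all genes.

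The direction was nearly uniform. The log2 fold change was above 0 for 34 of 37 members, against 52.9% of all genes, and it was above 0 for 30 members after quantile normalization and for 32 after each library was shifted to the same median. The median over the members was 0.37, against 0.04 over all genes tested, and quantile normalization lowered it to 0.20. Without JH2, 32 members were above 0 with a median of 0.28, against 48.4% of all genes. In 12 of 37 members (32.4%) the 3 JH values lay above the 3 LD values, against 10.8% of all genes, and after quantile normalization in 10 members, against 13.2% of all genes. In 0 members they lay below, against 12.5% of all genes. These 12 were PSMA5, PSMA6, PSMC6, PSMD2, PSMD6, PSMD8, PSMD9, PSMD12, PSMD13, PSMG1, PSMG2 and PSMG3. JH2 was the highest library for 18 members (22.8% of all genes), JH1 for 17 (26.0% of all genes) and JH3 for 0 (6.04% of all genes). LD3 was the lowest for 17 members (30.2% of all genes) and JH3 for 10, against 3270 of all 12993 genes. The members thus largely moved together by library, and their counts are not independent observations of breed. The shares of all genes were not matched to the members for level. With 1 library left out, 2 libraries are set against 3, and breeds separate more easily in all genes. Without JH3, 16 of 37 members were higher in JH at an unadjusted p below 0.05 (13.5% of all genes) and 26 did not overlap (26.8% of all genes). Without LD1, the counts were 10 of 37 (7.69% of all genes) and 19 of 37 (17.9% of all genes). Without JH1, the first count was 3 of 37 (5.74% of all genes). Without JH2 it was 4 of 37 (5.70% of all genes), with 12 members that did not overlap (13.3% of all genes).

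**Figure D1:**
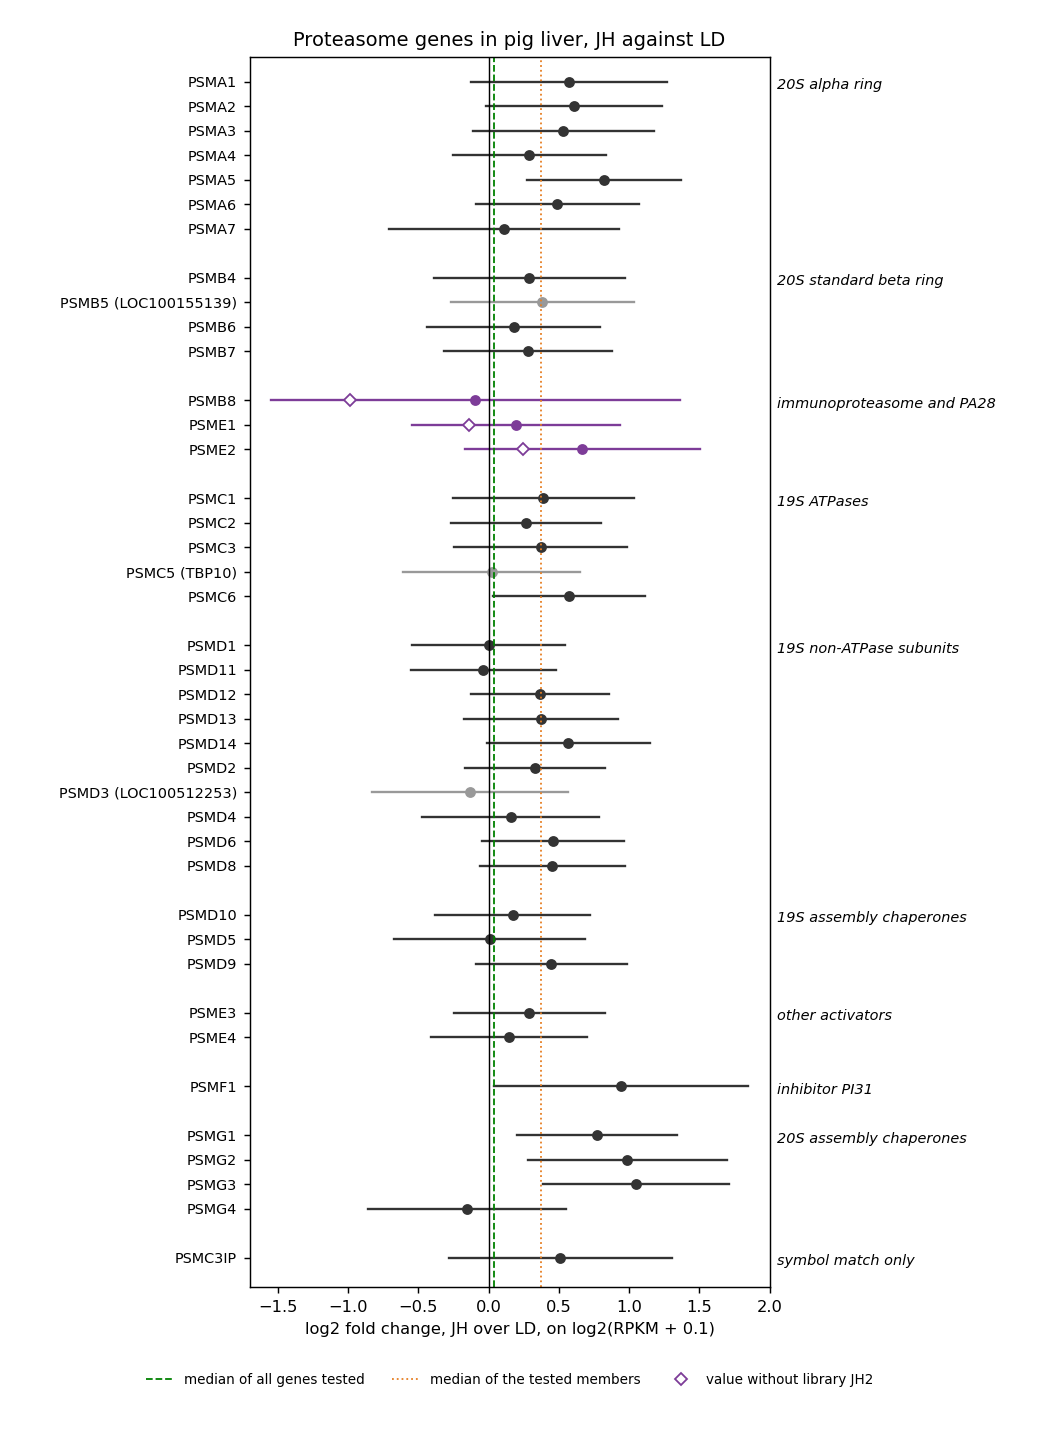
Points give each log2 fold change (JH over LD) with its 95% confidence interval from limma for the 37 tested members and, in grey, for the 3 genes found under other names, grouped by role. Most points lie between the median of all genes (0.04, dashed) and 1, the immunoproteasome and PA28 genes (purple) have wide intervals, and open diamonds show their values without JH2.

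The alpha ring forms the gate of the core particle. All 7 tested PSMA genes had a log2 fold change above 0, with a median of 0.53, and PSMA7 turned to -0.0187 after quantile normalization. Its direction also rested on single libraries, with -0.13 without JH1, -0.03 without JH2, -0.07 without LD3, 0.49 without JH3 and 0.34 without LD2. The range ran from 0.11 for PSMA7 to 0.82 for PSMA5. PSMA5 was listed at 76.4, 84.2 and 59.1 RPKM in JH1, JH2 and JH3 and at 47.4, 38.6 and 37.5 RPKM in LD1, LD2 and LD3. All JH libraries lay above all LD libraries. For PSMA5 the log2 fold change was 0.82 with an SE of 0.24 and an adjusted p of 0.126 in limma. PSMA7 was the most abundant of the standard members in each of the 6 libraries, between 104 RPKM in JH3 and 244 RPKM in JH1. Its breeds overlapped, with 187 ± 73.3 RPKM in JH and 167 ± 49.8 RPKM in LD (SD, n = 3). JH2 was the highest library for 6 of the 7 genes, and without it the median was 0.37.

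The standard beta ring holds the cutting subunits PSMB5, PSMB6 and PSMB7, which carry the chymotrypsin-like, caspase-like and trypsin-like sites. PSMB5 was listed at 113, 88.7 and 58.8 RPKM in JH1, JH2 and JH3 and at 72.4, 66.9 and 55.0 RPKM in LD1, LD2 and LD3. PSMB6 was at 126, 128 and 77.3 RPKM in JH and at 85.4, 110 and 91.6 RPKM in LD. PSMB7 was at 166, 139 and 96.1 RPKM in JH and at 103, 119 and 102 RPKM in LD. For all 3 genes JH1 and JH2 were above every LD library, while JH3 lay within or below the LD values, so the breeds overlapped. The log2 fold changes were 0.38 for PSMB5, 0.18 for PSMB6 and 0.28 for PSMB7, with adjusted p of 0.534, 0.773 and 0.623 in limma. They rested on single libraries, with 0.16, 0.0657 and 0.11 without JH1 and 0.64, 0.42 and 0.50 without JH3, and PSMB6 was at 0.0558 without JH2. After quantile normalization PSMB5 was at 0.20, PSMB6 at 0.0329 and PSMB7 at 0.15. PSMB4, a subunit without a cutting site, had a log2 fold change of 0.29, and 0.15 without JH2, 0.13 without JH1 and 0.59 without JH3. It was 0.17 after quantile normalization.

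The immunoproteasome and PA28 genes did not separate the breeds. Library JH2 was the highest for all 3 that could be tested. PSMB8, the inducible counterpart of PSMB5, was listed at 1.23, 8.27 and 1.20 RPKM in JH1, JH2 and JH3 and at 2.04, 2.96 and 2.58 RPKM in LD1, LD2 and LD3. These levels stand on 19 to 173 reads per library. JH2 was 4.14 times the mean of the other 5 libraries, and JH1 and JH3 were the lowest of all. It had a log2 fold change of -0.09 with an SE of 0.64 and an adjusted p of 0.957 in limma. Without JH2 it was -0.98, with an adjusted p of 0.214 in limma, and this was the only member lower in JH at an unadjusted p below 0.05 in any of the 14 alternative fits. The direction rested on single libraries, since the log2 fold change was 0.34 without JH1, 0.36 without JH3 and 0.0251 without LD2, and it was 0.0257 with a pseudocount of 1. PSMB9 and PSMB10, the counterparts of PSMB6 and PSMB7, were listed at 0 in all libraries.

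PSME1 and PSME2 encode the alpha and beta subunits of PA28, a cap that opens the core particle without ATP. PSME1 was listed at 148, 250 and 104 RPKM in JH1, JH2 and JH3 and at 122, 138 and 151 RPKM in LD1, LD2 and LD3. PSME2 was at 86.6, 179 and 63.7 RPKM in JH and at 76.3, 57.0 and 56.5 RPKM in LD. JH2 was 1.89 times the mean of the other 5 libraries for PSME1 and 2.62 times for PSME2. Among the other JH libraries, JH1 lay within the LD range and JH3 below it for PSME1, while JH1 lay above it and JH3 within it for PSME2. The log2 fold change of PSME1 was 0.20 with all libraries and -0.14 without JH2, with adjusted p of 0.795 and 0.875 in limma. That of PSME2 was 0.67 and 0.25, with adjusted p of 0.386 and 0.760 in limma. In liver these PA28 genes were far more abundant than PSMB8, at a mean of 152 RPKM for PSME1 and 86.4 RPKM for PSME2 against 3.05 RPKM for PSMB8 over the 6 libraries. The median log2 fold change of PSMB8, PSME1 and PSME2 was 0.20, against 0.37 for the 33 other tested members without PSMC3IP, and without JH2 it was -0.14 against 0.34. The first median was 0.34 without JH1, 0.49 without JH3 and 0.12 without LD1, and it was 0.0800 after quantile normalization. The difference between these medians was not tested.

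**Figure D2:**
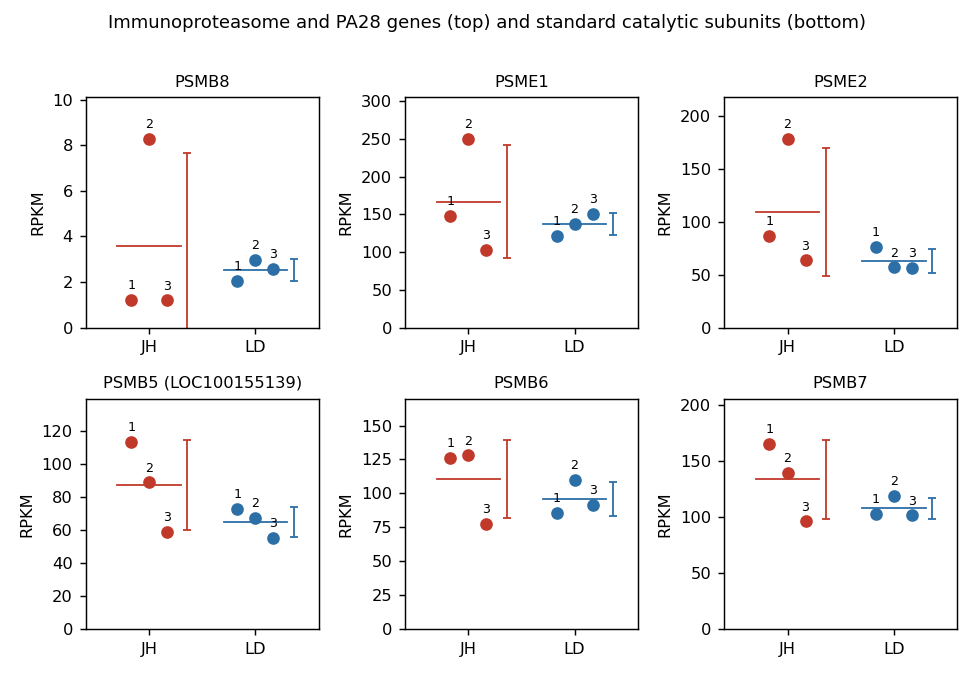
RPKM in each library (numbered points), with the mean (line) and SD (bar beside the points, n = 3) of each breed, for the immunoproteasome and PA28 genes and for the standard cutting subunits; the SD bar of PSMB8 in JH is cut at 0. JH2 is the highest point for PSMB8, PSME1 and PSME2, while JH1 and JH2 lie close together for PSMB6.

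A ratio within a library does not depend on scaling between libraries. PSMB8 takes the place of PSMB5 in the beta ring, and its RPKM was 1.08%, 9.33% and 2.04% of that of PSMB5 in JH1, JH2 and JH3 and 2.81%, 4.42% and 4.69% in LD1, LD2 and LD3. JH2 had the highest share and the other JH libraries the lowest. The mean log2 ratio was 0.47 lower in JH (difference -0.47), with p = 0.6 in a two-sided exact permutation test, and the smallest p that 3 pigs against 3 can give is 0.1. Without JH2 the difference was -1.33, with an exact p of 0.1, and without JH1 it was 0.18. A p of 0.1 is also the smallest that 2 pigs against 3 can give. It shows only that the ratios of the remaining libraries did not overlap between breeds. The 2 other planned ratios could not be formed because PSMB9 and PSMB10 were listed at 0. All samples are whole liver, so fewer cells of a type and less RNA per cell cannot be told apart.

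The 19S ATPases unfold the tagged protein and push it into the core. The 4 tested PSMC ATPase genes had log2 fold changes from 0.27 for PSMC2 to 0.57 for PSMC6, with a median of 0.38. The median was 0.20 without JH1, 0.21 without LD3 and 0.20 after quantile normalization. PSMC2 was at 0.18 without JH1, 0.16 without LD3 and 0.0930 after quantile normalization. PSMC6 was listed at 44.7, 55.3 and 43.3 RPKM in JH1, JH2 and JH3 and at 37.6, 27.4 and 31.3 RPKM in LD1, LD2 and LD3. The breeds did not overlap. Its log2 fold change of 0.57 had an SE of 0.24 and an adjusted p of 0.253 in limma, and without JH2 it was 0.47 with an adjusted p of 0.498. PSMC5, under its older name, was level at a log2 fold change of 0.02, which turned to -0.15 after quantile normalization and ran from -0.12 to 0.26 when 1 library was left out.

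The non-ATPase subunits build the lid and base of the 19S particle. Of 9 tested, 8 had a log2 fold change above 0, with a median of 0.37, and 0.20 after quantile normalization. The exception was PSMD11, a lid subunit, at 34.1, 33.5 and 29.0 RPKM in JH and 30.1, 38.5 and 30.9 RPKM in LD, with a log2 fold change of -0.04. Its breeds overlapped, and it ran from -0.10 to 0.0747 when 1 library was left out. After quantile normalization PSMD11 was at -0.20. PSMD1, a scaffold of the base, had a log2 fold change of 0.00, and it was -0.15 after quantile normalization and -0.0094 after each library was shifted to the same median. It ran from -0.11 to 0.12 when 1 library was left out. The ubiquitin receptor PSMD4 went from 0.16 to -0.0243 after quantile normalization, and it was 0.0344 without JH2, 0.0391 without JH1 and 0.40 without JH3. PSMD14, the enzyme that removes the ubiquitin chain, had the largest value of these subunits, 0.57 with an SE of 0.26 and an adjusted p of 0.290 in limma. In PSMD2, PSMD6, PSMD8, PSMD12 and PSMD13 the 3 JH libraries lay above the 3 LD libraries, with log2 fold changes from 0.33 to 0.46, and PSMD13 was at 0.22 without JH1. After quantile normalization PSMD13 was at 0.20, PSMD2 at 0.13, PSMD6 at 0.30, PSMD8 at 0.28 and PSMD12 at 0.25. PSMD12, a lid subunit, was at 13.7 ± 0.474 RPKM in JH and 10.6 ± 0.536 RPKM in LD (SD, n = 3). PSMD3, found under its gene number, had a log2 fold change of -0.13, which ran from -0.35 to 0.14 when 1 library was left out. The chaperones that assemble the base, PSMD5, PSMD9 and PSMD10, were at 0.01, 0.45 and 0.17, and PSMD5 turned to -0.0129 after quantile normalization, to -0.00414 after each library was shifted to the same median and to -0.00222 in voom. PSMD5 ran from -0.19 to 0.22 when 1 library was left out. PSMD10 was at 0.0499 without LD3, 0.11 without JH2, 0.29 without LD1 and 0.29 without JH1. Quantile normalization put PSMD9 at 0.29 and PSMD10 at 0.0564.

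Other caps and regulators of the core particle showed small values or few reads. PSME3, the nuclear activator PA28 gamma, and PSME4, the activator PA200, had log2 fold changes of 0.29 and 0.15. PSME3 was at 0.18 without LD1 and 0.42 without LD2. PSME4 was at 0.000557 without JH1, 0.0653 without LD2, 0.22 without LD1 and 0.25 without JH2. After quantile normalization PSME3 was at 0.18 and PSME4 at 0.0814. PSMF1, which encodes the regulator PI31, was listed at 1.61, 2.12 and 1.93 RPKM in JH1, JH2 and JH3 and at 1.67, 0.716 and 0.650 RPKM in LD1, LD2 and LD3. LD1 lay among the JH libraries and the other LD libraries were lower, so the breeds overlapped. On 10 to 32 reads per library, PSMF1 had a log2 fold change of 0.94 with an SE of 0.40 and an adjusted p of 0.260 in limma. Without JH2 its log2 fold change was 0.86 with an adjusted p of 0.448 in limma. With a pseudocount of 1 the log2 fold change of PSMF1 was 0.55. PSMC3IP had a log2 fold change of 0.51 with an adjusted p of 0.486 in limma, and 0.24 without JH2 and 0.90 without JH3.

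The chaperones that assemble the alpha ring had a median log2 fold change of 0.88 over 4 genes, of which PSMG4 lay below 0. PSMG1 and PSMG2 act as a pair, and PSMG3 and PSMG4 act as another. PSMG1 was listed at 20.6, 17.4 and 13.1 RPKM in JH1, JH2 and JH3 and at 8.76 to 10.4 RPKM in LD. PSMG2 was at 26.2, 20.7 and 15.2 RPKM in JH and at 14.5, 9.31 and 7.72 RPKM in LD. PSMG3 was at 23.2, 34.3 and 25.3 RPKM in JH and at 13.5, 17.6 and 9.49 RPKM in LD. In these 3 genes every JH library lay above every LD library. PSMG4 was at 32.1, 39.0 and 21.6 RPKM in JH and at 42.0, 36.8 and 24.0 RPKM in LD, and its breeds overlapped throughout.

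The log2 fold change of PSMG3 was 1.05 with an SE of 0.29 (95% interval 0.39 to 1.71), and its adjusted p was 0.108 in limma. PSMG2 had 0.99 with an SE of 0.31 and an adjusted p of 0.148 in limma. PSMG1 had 0.77 with an SE of 0.25 and an adjusted p of 0.158 in limma. In PSMG4 it was -0.15 with an SE of 0.31 and an adjusted p of 0.835 in limma. PSMG3 and PSMG4, whose products work together, had log2 fold changes of opposite sign, though PSMG4 turned to 0.0829 without JH3 and to 0.0129 without LD1. The difference between the genes was not tested. Without JH2, PSMG1, PSMG2, PSMG3 and PSMA5 were the 4 members higher in JH at an unadjusted p below 0.05, with log2 fold changes of 0.75, 0.97, 0.88 and 0.71 and a lowest adjusted p of 0.259 in limma.

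**Figure D3:**
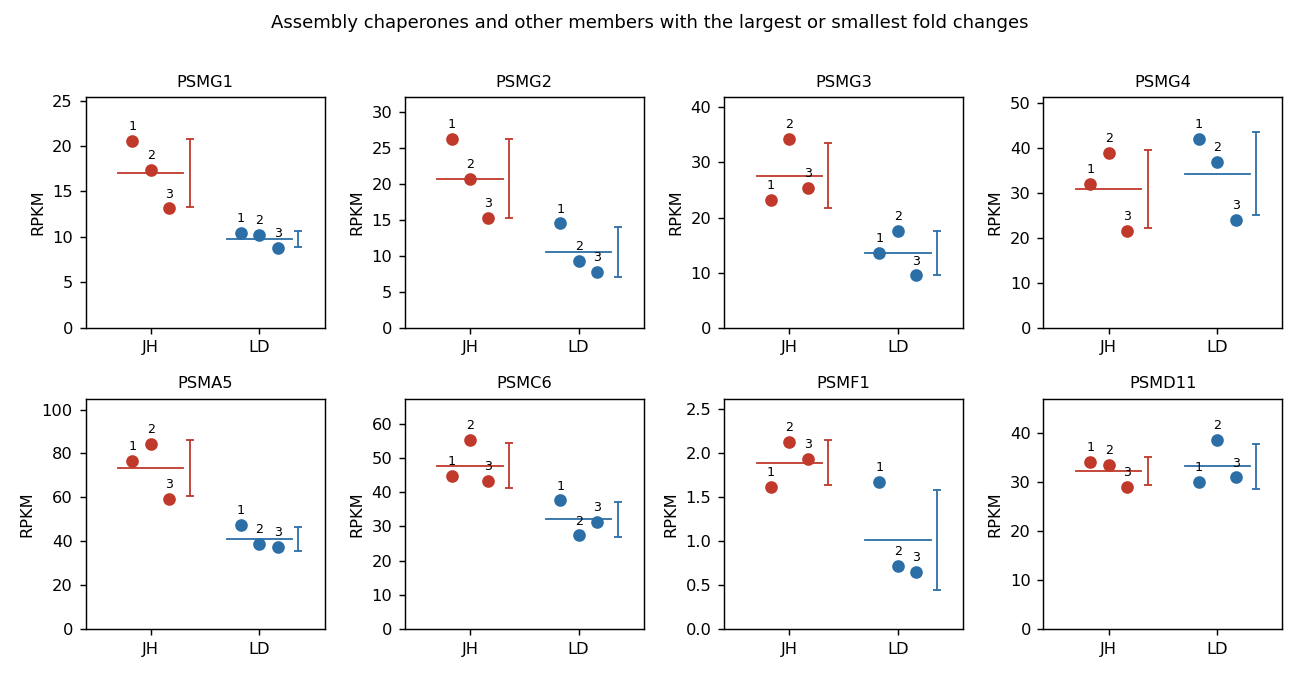
RPKM in each library (numbered points), with the mean (line) and SD (bar beside the points, n = 3) of each breed, for the alpha ring chaperones and for PSMA5, PSMC6, PSMF1 and PSMD11. The breeds do not overlap for PSMG1, PSMG2, PSMG3, PSMA5 and PSMC6, and they overlap for PSMG4, PSMF1 and PSMD11.

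Levels of the members spanned a wide range in each library. Among the 33 tested members other than PSMC3IP and the immunoproteasome and PA28 genes, the median was 60.0, 55.3 and 43.3 RPKM in JH1, JH2 and JH3 and 42.0, 38.6 and 34.7 RPKM in LD1, LD2 and LD3. The 3 JH medians lay above the 3 LD medians, by a small margin for JH3 over LD1. The sums over the 33 overlapped, with 2241, 2246 and 1534 RPKM in JH1, JH2 and JH3. They were 1655, 1642 and 1350 RPKM in LD1, LD2 and LD3, so JH3 lay below LD1 and LD2. PSMF1 was the lowest of the 33 in all 6 libraries. Within the 23 tested subunits of the rings and the 19S particle, the lowest was PSMD12 in all 6, between 10.3 and 14.2 RPKM.

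Neighbouring genes were read from the order of genes in RefSeq (Sscrofa11.1, another build than the files use). PSMB8 lies between TAP2 and TAP1, the genes of the peptide transporter that loads MHC class I, and PSMB9 follows TAP1. TAP1 and TAP2 were chosen for a closer view after their values were seen. TAP1 was listed at 0.637, 5.76 and 1.24 RPKM in JH1, JH2 and JH3 and at 1.44, 0.829 and 0.851 RPKM in LD1, LD2 and LD3. TAP2 was at 0.307, 2.16 and 0.571 RPKM in JH and at 0.597, 0.693 and 0.647 RPKM in LD. Both were highest in JH2, and the other JH values lay within or below the LD range. The log2 fold change was 0.70 for TAP1 and 0.19 for TAP2, with adjusted p of 0.631 and 0.903 in limma, and it turned to -0.15 and -0.51 without JH2 and was 1.34 and 0.73 without JH1. JH2 was 5.76 times the mean of the other libraries for TAP1 and 3.84 times for TAP2. PSME1 and PSME2 lie on either side of EMC9, which overlaps PSME1. In all, 10 tested members, PSMG2, PSMA7 and PSME1 among them, overlap another gene, and whether the counting used the strand is not given in the sources used here, so reads of such pairs cannot be told apart.

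Genes that tag proteins for the proteasome or work beside it had medians between -0.02 and 0.23. Of 6 tested ubiquitin and E1 genes, 0 had an adjusted or an unadjusted p below 0.05 in limma, and the median log2 fold change was 0.23. The largest value was 0.43 for RPS27A, a ubiquitin gene fused to a ribosomal protein, with an adjusted p of 0.431 in limma. Ubiquitin genes share sequence, so their reads are uncertain. Of 6 tested partners of the proteasome, 2 had a log2 fold change above 0. The largest in size was -0.63 for the ubiquitin ligase UBE3C (adjusted p = 0.262 in limma), the only one of the 6 past an unadjusted p of 0.05. UBE3C did not pass this limit with no filter on low values, after quantile normalization or with the replicate block. It also did not pass without JH2, JH3, LD2 or LD3. UBE3C was at 3.62, 2.32 and 3.10 RPKM in JH and 3.95, 5.12 and 5.01 RPKM in LD, with no overlap. Of 9 tested shuttle and unfolding factors, 0 had an unadjusted p below 0.05, the median was 0.02, and the largest value was 0.60 for NPLOC4, a cofactor of the unfoldase VCP (adjusted p = 0.339 in limma). Of 7 tested transcription regulators of proteasome genes, 0 had an unadjusted p below 0.05, with a median of 0.01 and the largest value, -0.52, for STAT3 (adjusted p = 0.371 in limma). When 1 library was left out, STAT3 was at -0.26 without JH3, RPS27A at 0.24 without JH1 and NPLOC4 at 0.39 without JH1 and 0.38 without LD3. STAT3 was at -0.69 after quantile normalization and -0.72 without JH2. In both fits, and after each library was shifted to the same median, STAT3 passed an unadjusted p of 0.05. RPS27A and NPLOC4 passed it without JH3, and NPLOC4 also after that shift and with the replicate block. NFE2L1, the main activator of proteasome genes, has no row under that symbol in the files.

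Many but not all genes of antigen processing and interferon signalling were highest in JH2. The summed RPKM of the immunoproteasome and PA28 genes was 236, 437 and 168 in JH1, JH2 and JH3 and 200, 197 and 210 in LD1, LD2 and LD3. Of 13 tested genes of MHC class I antigen processing, 8 were highest in JH2, and of 10 tested interferon signalling genes 7 were, against 22.8% of all genes. The sum of the first list was 1357, 2936 and 1289 RPKM in JH and 1671, 2453 and 1576 RPKM in LD, so LD2 was high as well. CALR was the most abundant gene of that list. Each list had 0 genes at an adjusted p below 0.05 in limma. At an unadjusted p below 0.05 the first had 0 higher and 1 lower in JH, and the second had 1 higher and 1 lower, against 8.35% of all genes higher and 9.51% lower. The largest value of the first was 1.07 for SLA-6 (adjusted p = 0.355 in limma), a class I gene at 9.02, 52.3 and 12.4 RPKM in JH and 8.64, 8.61 and 8.43 RPKM in LD, and it was 0.30 without JH2. Class I genes share sequence to varying degrees, and reads may be split among them. The largest of the second was 1.09 for SOCS1, an inhibitor of interferon signalling (adjusted p = 0.140 in limma), at 10.5, 14.4 and 6.09 RPKM in JH and 3.89, 4.35 and 5.53 RPKM in LD, with no overlap. Without JH3 its adjusted p was 0.0422, the lowest of 14 alternatives that reached up to 0.321. B2M, NLRC5 and IFNAR2 were listed at 0 in all libraries.

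Immune cell markers were set beside these genes for each library. Of 13 T and NK cell markers, 11 were highest in JH2, NKG7 was the most abundant, and GZMB was at 0 in JH1. CD4, chosen after its values were seen, went the other way, at 2.29, 3.55 and 1.89 RPKM in JH and 6.02, 6.25 and 13.5 RPKM in LD, with a log2 fold change of -1.64 and an adjusted p of 0.0586 in limma. In voom its adjusted p was 0.0350, the only 1 of the 14 alternatives below 0.05. Over the alternatives the adjusted p of CD4 reached up to 0.143, and its log2 fold change ran from -1.89 to -1.27. All 5 tested pan-leukocyte markers were highest in JH2, with sums of 72.1, 193 and 89.0 RPKM in JH and 108, 89.2 and 112 RPKM in LD, with LAPTM5 the most abundant and CORO1A listed at 0 throughout. Of 8 tested macrophage and Kupffer cell markers, 5 were highest in JH2, with sums of 1185, 2083 and 889 RPKM in JH and 1329, 1551 and 1411 RPKM in LD, with C1QC the most abundant and CD163 and CLEC4F listed at 0. The B and plasma cell list summed to 21.6, 66.1 and 23.2 RPKM in JH and 20.3, 28.5 and 18.3 RPKM in LD, with IGJ the most abundant and 3 of 4 tested genes highest in JH2. The dendritic cell list summed to 5.03, 10.7 and 5.12 RPKM in JH and 10.1, 10.1 and 7.21 RPKM in LD, with BATF3 the most abundant and 3 of 4 highest in JH2. JH2 had the highest sum for all 5 lists, though for dendritic cells only with BATF3 (without it 5.28 RPKM in JH2 against 5.84 RPKM in LD1), and JH1 and JH3 had the lowest sums for 4 of them, B and plasma cells being the exception. The part of these cells in the levels of PSMB8, PSME1 and PSME2 was not tested.

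**Figure D4:**
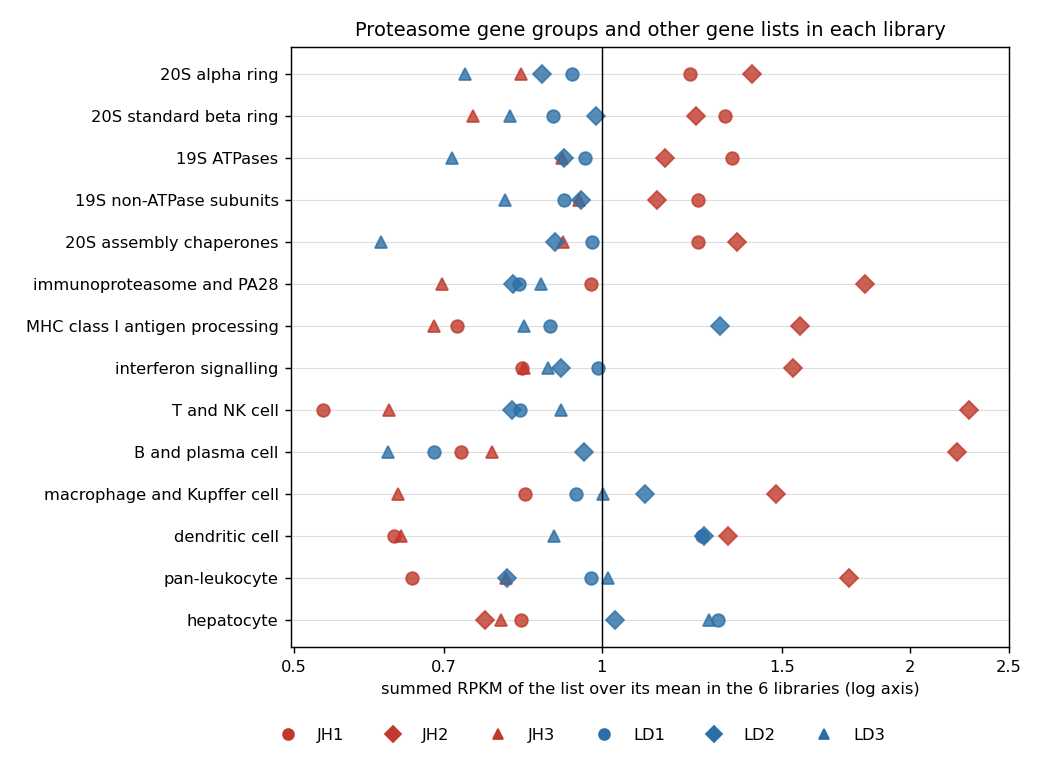
The summed RPKM of each gene list in each library, divided by its mean over the 6 libraries, on a log axis, with JH libraries in red and LD libraries in blue. JH2 (red diamonds) is the highest for the immunoproteasome and PA28 genes at 1.81 and for T and NK cell markers at 2.29, while in the ring and 19S lists JH1 and JH2 lie together above the rest.

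The hepatocyte, stellate cell, bile duct, erythroid and endothelial lists had median log2 fold changes below 0. For the bile duct and erythroid lists the median rests on 2 tested genes each. The hepatocyte list, with ALB the most abundant, summed to 57012, 52541 and 54547 RPKM in JH and to 88801, 70427 and 86994 RPKM in LD. The 7 tested hepatocyte markers had 0 genes at an adjusted p below 0.05 and 2 lower and 0 higher in JH at an unadjusted p below 0.05 in limma, against 9.51% and 8.35% of all genes, and the median log2 fold change was -0.20. The stellate cell list, led by COLEC11, summed to 86.1, 73.2 and 64.3 RPKM in JH and to 154, 147 and 88.1 RPKM in LD. LRAT, the vitamin A storage enzyme of stellate cells, was the gene of that list past an adjusted p of 0.05 in limma (log2 fold change -1.72, adjusted p = 0.0384), at 0.424, 0.512 and 0.564 RPKM in JH and 1.99, 1.80 and 1.81 RPKM in LD. The bile duct list, led by EPCAM, summed to 2.13, 1.93 and 1.55 RPKM in JH and to 6.08, 9.64 and 5.24 RPKM in LD.

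EPCAM, a surface protein of bile duct cells, was at 1.27, 1.31 and 1.32 RPKM in JH and 3.69, 5.17 and 3.31 RPKM in LD (log2 fold change -1.55, adjusted p = 0.0301 in limma). Its levels stand on 10 to 56 reads per library. The erythroid list, led by HBB, summed to 99.3, 90.2 and 122 RPKM in JH and to 393, 213 and 235 RPKM in LD. HBB, the beta globin gene, had a log2 fold change of -1.39 with an adjusted p of 0.0459 in limma, at 98.3, 89.1 and 119 RPKM in JH and 389, 210 and 230 RPKM in LD. For LRAT, EPCAM and HBB every JH library lay below every LD library. Each kept an adjusted p below 0.05 in 1 of the 6 fits that left out a library, the one without JH3, and the adjusted p reached up to 0.147, 0.111 and 0.143 over the 14 alternatives. LRAT, EPCAM and HBB also lost this limit with no filter on low values, and LRAT and HBB lost it with the replicate block. HBB lost it as well with a pseudocount of 0.01 and in limma with no trend. With a pseudocount of 1, the log2 fold change of LRAT was -0.94. The endothelial list, led by CLEC4G, summed to 283, 217 and 172 RPKM in JH and to 279, 276 and 222 RPKM in LD. Without CLEC4G the sums were 69.6, 58.6 and 62.7 RPKM in JH and 84.0, 95.1 and 86.8 RPKM in LD, with no overlap. Of its 7 tested genes, 7 had a log2 fold change below 0, against 47.1% of all genes, with 0 at an adjusted p below 0.05 in limma. At an unadjusted p below 0.05 there were 2, both lower in JH, against 9.51% of all genes. Without JH2, STAB1 turned to 0.0950 and STAB2 to 0.0958, and the other genes of the endothelial list stayed below 0. The part of these cell types in the proteasome gene levels was not tested.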

How the data were processed

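RPKM values were deposited by the authors, 1 column per mRNA library, after aligning single reads to Sus scrofa 10.2 with TopHat2 2.0.13 (the submitters' processing notes) and counting reads per gene with gfold. The small RNA files were not used. Breed and replicate came from the sample labels. Members and lists were chosen with earlier results of these data known. Genes reaching 0.5 RPKM in 3 or more libraries were tested on log2(RPKM + 0.1) by limma 3.58.1 under R 4.3.3, using lmFit and a trended eBayes, with Benjamini-Hochberg adjustment over 12993 genes. The study tested read counts with DEGseq, and limma takes its place because the deposited mRNA values are RPKM. P-values measure the spread between 3 pigs per breed. Reads were recovered from the RPKM steps for 99.6% of tested genes and for all 37 tested members. Python 3.11.15 made the tables and plots (matplotlib 3.10.9, scipy 1.17.1, numpy 2.4.6, pandas 2.3.3), and the tests were checked on simulated data.

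Values in every library are given for the immunoproteasome genes, for PSMB5, PSMB6 and PSMB7, for members past an adjusted p of 0.05 (there were 0), and for the 3 members with the largest and the 3 with the smallest log2 fold change. Those of PSMA5, PSMC6 and PSMG1 were added after the values were seen. Of other lists, genes past an adjusted p of 0.05 are named, or else the gene with the largest absolute log2 fold change, and of cell type lists the most abundant gene and markers listed at 0. TAP1, TAP2 and CD4 were added after their values were seen. Unadjusted p are not printed for single genes, and the limit of 0.05 serves for counts and for naming the genes counted. Alternatives were pseudocounts of 0.01 and 1, no filter on low values, quantile normalization, a shift of each library to the same median, limma with no trend, a replicate block, each library left out in turn and, added after the data were seen, voom on recovered reads. A planned search of promoter motifs was not run, since no promoter sequences were used here.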

Additional observations from a re-analysis of the deposited data

How the results depend on the processing

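No member had an adjusted p below 0.05 in limma or voom under any of the 14 alternatives, and the lowest adjusted p, 0.053 for PSMG3, came after the shift of libraries to a common median. Of 518 member fold changes under the alternatives, 493 kept their direction and their side of the threshold, and 25, in 8 members, changed direction. The cause was not tested. The number of DEGs among all genes was 310, and it was 199 with a pseudocount of 0.01, 200 with no filter on low values and between 79 and 406 when 1 library was left out. Members higher in JH at an unadjusted p below 0.05 numbered 12 after each library was shifted to the same median (10.97% of all genes), and between 3 and 16 when 1 library was left out (5.26% to 13.5% of all genes). Those lower in JH numbered between 0 and 1 when 1 library was left out (6.47% to 9.10% of all genes). Members whose JH values all lay above all LD values, 2 libraries against 3, numbered between 12 and 26 when 1 library was left out (12.2% to 26.8% of all genes).

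After quantile normalization the log2 fold change was -0.0187 for PSMA7, -0.15 for PSMD1, -0.0243 for PSMD4, -0.0129 for PSMD5 and -0.15 for PSMC5. After each library was shifted to the same median it was -0.0094 for PSMD1 and -0.00414 for PSMD5. It was -0.00222 for PSMD5 in voom and 0.0257 for PSMB8 with a pseudocount of 1. With 1 library left out, the values ran from -0.13 to 0.49 for PSMA7, from -0.98 to 0.36 for PSMB8, from -0.11 to 0.12 for PSMD1, from -0.10 to 0.0747 for PSMD11, from -0.19 to 0.22 for PSMD5, from -0.14 to 0.49 for PSME1, from -0.39 to 0.0829 for PSMG4, from -0.35 to 0.14 for PSMD3, from -0.12 to 0.26 for PSMC5, from -0.15 to 1.34 for TAP1 and from -0.51 to 0.73 for TAP2. The difference in the log2 ratio of PSMB8 to PSMB5 ran from -1.33 to 0.18.

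With the replicate number as a replicate block, limma called 253 DEGs, 0 members after adjustment and 9 members higher in JH at an unadjusted p below 0.05 (12.0% of all genes). The deviations of same-numbered pigs correlated at -0.02, 0.05 and 0.18 across genes. With so few pigs per breed, these values cannot settle whether the numbers pair the samples. JH3 correlated best with LD3, but JH1 and JH2 did not correlate best with their own numbers. The ratio of PSMB8 to PSMB5 had an exact p of 0.5 under the block.

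With 3 pigs per breed, no single member passed the adjusted test. PSMF1 and PSMB8 stand on few reads, and so do some cell markers, EPCAM among them. A value listed at 0 cannot be read as absence.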
